A study of Mus musculus with 6 samples.

Results

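The 9 genes described here encode enzymes and a transporter of arginine and tryptophan metabolism: Arg1, Arg2, Nos2, Ass1, Asl, Slc7a2, Odc1, Ido1 and Kynu. They were chosen by name, with earlier results of these libraries known, and all 9 were found among the 23946 genes of the deposited table. Of these, 8 reached an FPKM (fragments per kilobase of transcript and per 1000000 aligned reads, a level corrected for gene length) of at least 1 in at least 1 library, the level at which a gene is called expressed below. The exception was Nos2. Macrophages were sorted as CD45+CD11b+F4/80+ cells from 2 fat depots, omental (OM) and mesenteric (MY), of female C57BL/6 mice aged 6 to 8 weeks, and their RNA was sequenced. The omentum is a fold of peritoneal fat that carries immune cell clusters, and the mesentery is the fat that holds the gut. Tissue was taken from naive mice, labelled as normal, and at 24 h and at 7 d after intraperitoneal injection of ID8, a line of ovarian cancer cells from the same mouse strain. There is 1 library for each of the 6 conditions, named OM naive, OM 24h, OM 7d, MY naive, MY 24h and MY 7d. The study describes 9 mice in 3 groups, with the omenta of 3 mice pooled for a sample. The sources used here do not say whether OM and MY libraries of a time share mice.

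No condition has a replicate. Every difference below therefore describes 2 libraries, no test was made, and no value carries an error between animals. No library from mice injected with vehicle was used here, so the ID8 cells and the injection itself cannot be told apart. The FPKM of a library summed to between 526887 (MY naive) and 713863 (OM 24h). The reads behind a value are not known from FPKM. A rough depth, read from the commonest ratio of values under 0.1 FPKM between libraries, ran from 0.859 (OM naive) to 1.49 (OM 7d) times that of MY naive. The macrophage markers were present in all 6 libraries, with none of the 8 listed at 0, but so were the markers of B, T and NK cells. In bulk RNA, fewer cells of a type and less RNA per cell cannot be told apart.

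Arginine enters macrophages through cationic amino acid transporters, of which SLC7A2 is the form known to be induced in activated macrophages. Arginases split it into urea and ornithine, from which ornithine decarboxylase (ODC1) makes polyamines, while the inducible nitric oxide synthase (NOS2) turns it into nitric oxide and citrulline. Argininosuccinate synthase (ASS1) and lyase (ASL) rebuild arginine from citrulline. Arg1 is widely used as a marker of alternative activation of mouse macrophages and Nos2 as a marker of classical activation. Tryptophan is broken down to kynurenine by indoleamine 2,3-dioxygenase (IDO1), and kynureninase (KYNU) acts further down that route.

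Among the 9 genes, Arg1 had the widest range on the log2 scale. Arg1, the cytosolic arginase, spans 24635014 to 24647276 of chromosome 10 in NCBIM37 (mm9, the build of the files), on the minus strand, with 8 exons in its longest coding transcript. Its FPKM was 0.463 in OM naive, 213.2 in OM 24h and 5.62 in OM 7d. In the mesentery it was 1.37 in MY naive, 3.34 in MY 24h and 1.35 in MY 7d. OM 24h thus stood far above the other 5 libraries, and OM 7d was the next highest. OM 24h was 461 times OM naive, a difference of 7.19 on the log2(FPKM + 1) scale, which is the second highest of the 13064 expressed genes. OM 7d was still 12.1 times OM naive (log2 difference 2.18), but both ratios rest on the low OM naive level of 0.463, and with a pseudocount of 5 in place of 1 the OM 7d difference was 0.96, short of 2-fold. Between OM 24h and OM 7d the log2 difference was -5.02, the lowest of all expressed genes. MY 24h against MY naive gave 0.87, short of 2-fold on this scale, although the FPKM ratio was 2.43. Arg1 ranked 12208th of all genes in the table by FPKM in OM naive and 520th in OM 24h.

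**Figure D1:**
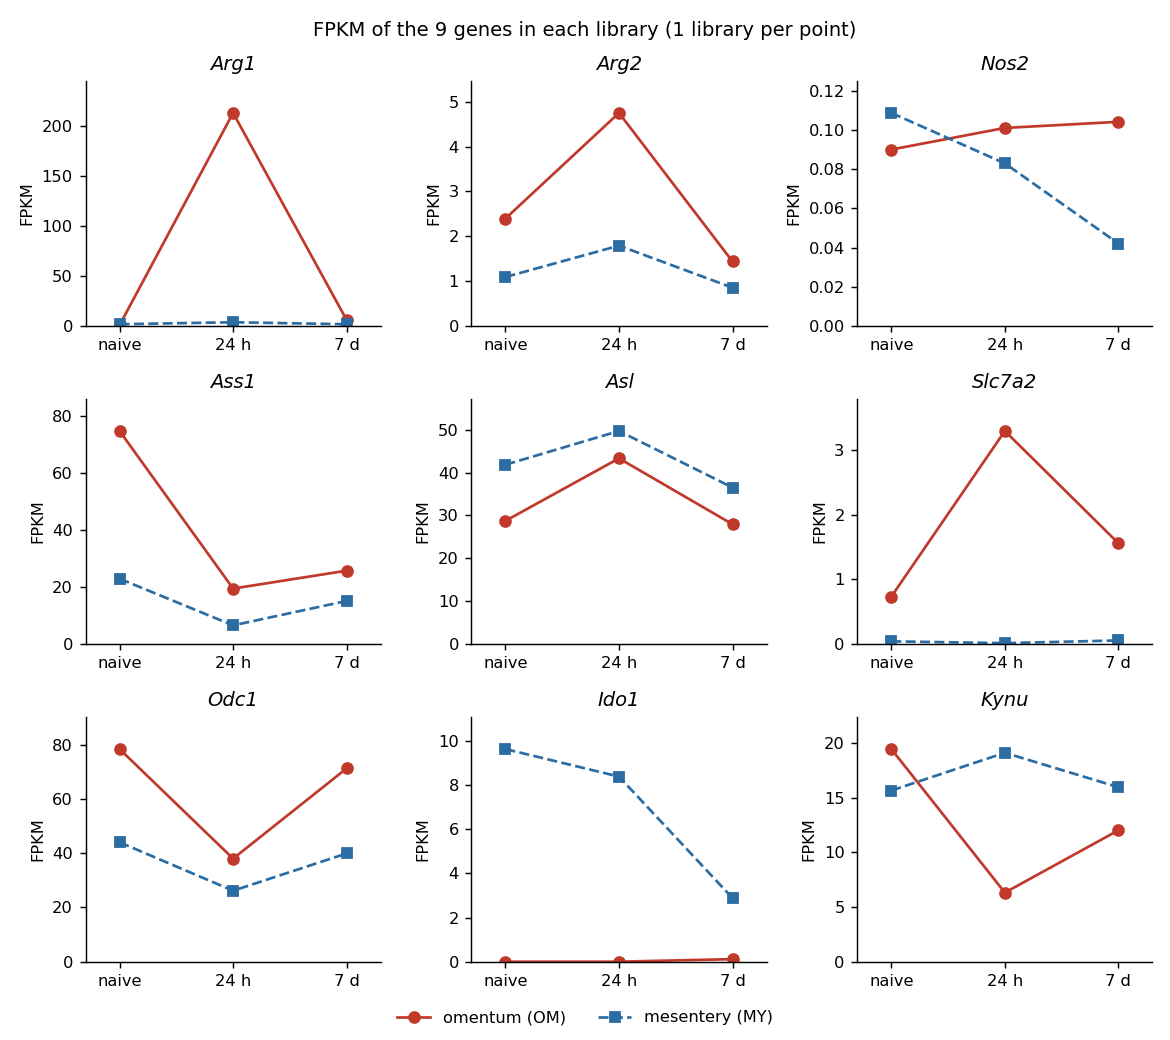
FPKM (vertical axes, linear, each panel with its own range) of the 9 genes in naive mice and 24 h and 7 d after ID8 injection (horizontal axes), in the omentum (circles, solid lines) and the mesentery (squares, dashed lines), with 1 library per point and no error bars. Arg1 reached 213.2 in OM 24h and at most 5.62 in the other libraries, while Ass1 and Odc1 had their lowest value in each tissue at 24 h.

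Markers of macrophages moved with Arg1 at 24 h. All 8 genes of the macrophage list (Emr1, Itgam, Csf1r, Cd68, Mertk, Fcgr1, Lyz2 and Cd14) had their highest FPKM in OM 24h. Their sum was 27044 there against 7656 in OM naive, 7255 in OM 7d and 2961 to 4215 in the mesentery. Lyz2 alone held 24780 of the sum in OM 24h, 7054 in OM naive and 6791 in OM 7d. The ratios of the 8 genes between OM 24h and OM naive ran from 1.65 (Itgam) to 8.94 (Fcgr1), each below the 461 of Arg1. In the neutrophil list all 9 measured genes exceeded OM naive by 2-fold or more in OM 24h. Of these, 5 had their highest value in OM 24h, as Arg1 did, and 4 in OM 7d. The list summed to 7491 in OM naive, 17821 in OM 24h and 19809 in OM 7d, where Arg1 was 5.62. S100a8 and S100a9 alone held 8381 and 5621 of the OM 7d sum. The mesothelial and epithelial list likewise summed to 105.6 in OM naive, 994 in OM 24h and 979 in OM 7d. The part of these cells in the level of Arg1 was not tested.

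Arg2, the mitochondrial arginase, stayed low. It spans 80231764 to 80257288 of chromosome 12 (plus strand). Its FPKM was 2.39 in OM naive, 4.76 in OM 24h and 1.43 in OM 7d, and 1.09, 1.79 and 0.848 in MY naive, MY 24h and MY 7d. As with Arg1, the highest value of each tissue was at 24 h, but the log2 difference was 0.76 in the omentum and 0.42 in the mesentery, both short of 2-fold. The order of the arginases differed between libraries. The FPKM ratio of Arg1 to Arg2 was 0.193 in OM naive, 44.8 in OM 24h and 3.92 in OM 7d, and between 1.27 and 1.87 in the mesentery. OM naive was thus the library in which Arg2 had the higher level of the pair.

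Nos2 was near the lower limit of the table in every library. Its FPKM ranged from 0.0420 (MY 7d) to 0.109 (MY naive), with 0.0902, 0.101 and 0.104 in the omentum (naive, 24 h, 7 d). Values this low cannot be 2-fold apart on the log2(FPKM + 1) scale. The FPKM ratio of MY naive to MY 7d was 2.59, but differences at this level cannot be read without counts. Of the other synthases, Nos1 was at most 0.164, and Nos3, the endothelial form, reached 1.09 in OM 7d. The genes for the cofactor tetrahydrobiopterin were expressed nevertheless. Gch1, which starts its synthesis, was 12.5, 20.7 and 15.2 across the omental series and 7.50 to 8.19 in the mesentery. Ddah2, listed with the nitric oxide genes, was 7.77 in OM naive, 39.3 in OM 24h and 41.0 in OM 7d. It was 10.4 in MY 24h and 6.01 in MY 7d. At 24 h in the omentum, 3 of the 8 expressed genes of the nitric oxide list passed 2-fold upwards and 0 downwards, where 11.9% and 6.45% of all expressed genes did (median log2 difference 0.61, against 0 for all expressed genes). These were Spr, Ddah1 and Ddah2.

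Slc7a2, the inducible arginine transporter, was read almost only in omental libraries. It spans 41947750 to 42007662 of chromosome 8 (plus strand). Its FPKM was 0.730 in OM naive, 3.30 in OM 24h and 1.56 in OM 7d, and at most 0.0499 in the mesentery. The tissues did not overlap. OM 24h exceeded OM naive by 1.31 (log2) and MY 24h by 2.09. Slc7a1, the constitutive transporter of the same family, went the other way, with 11.1 in OM naive and 3.35 in OM 24h (log2 difference -1.48). Its mesenteric values were 4.20 in MY naive, 2.19 in MY 24h and 4.25 in MY 7d. Slc7a7, which exports cationic amino acids together with the heavy chain Slc3a2, was 26.4 to 34.6 in the omentum and 13.5 to 19.1 in the mesentery. Fibroblast and mesothelial markers were also higher in all 3 omental than in all 3 mesenteric libraries (6 of 6 and 7 of 9 genes). So were 7 of 9 neutrophil and 4 of 8 macrophage markers, where 16.7% of all expressed genes were. The fibroblast list summed to 344.6, 221.5 and 1190 in OM naive, OM 24h and OM 7d, while all 8 macrophage markers were highest in OM 24h. The part of these cells in the level of Slc7a2 was not tested.

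In OM 24h against OM naive, 2 of the 8 expressed members were higher by 2-fold or more (Arg1 and Slc7a2), where 11.9% of all expressed genes were, and 3 were at least 2-fold lower (Ass1, Odc1 and Kynu), where 6.45% were. In OM 7d against OM naive, Arg1 was higher (background 11.0%) and Ass1 lower (1.96%). In OM 7d against OM 24h none was higher (7.03%) and Arg1 and Arg2 were lower (4.52%). The mesentery held fewer: Ass1 was lower in MY 24h (1.52%, none higher against 2.80%) and Ido1 in MY 7d (2.29%, none higher against 0.498%), each against MY naive. The comparisons with OM naive share that library, as do those with MY naive.

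Between the tissues, Ass1 was higher (8.18%) and Ido1 lower (8.05%) in OM naive than in MY naive. At 24 h, Arg1, Arg2, Ass1 and Slc7a2 were higher (13.9%) and Ido1 and Kynu lower (10.2%) in the omentum. At 7 d, Arg1 and Slc7a2 were higher (14.1%) and Ido1 was lower (4.99%). With so few genes, counts of 0 to 4 are given as a description of the members and not as a property of the group.

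**Figure D2:**
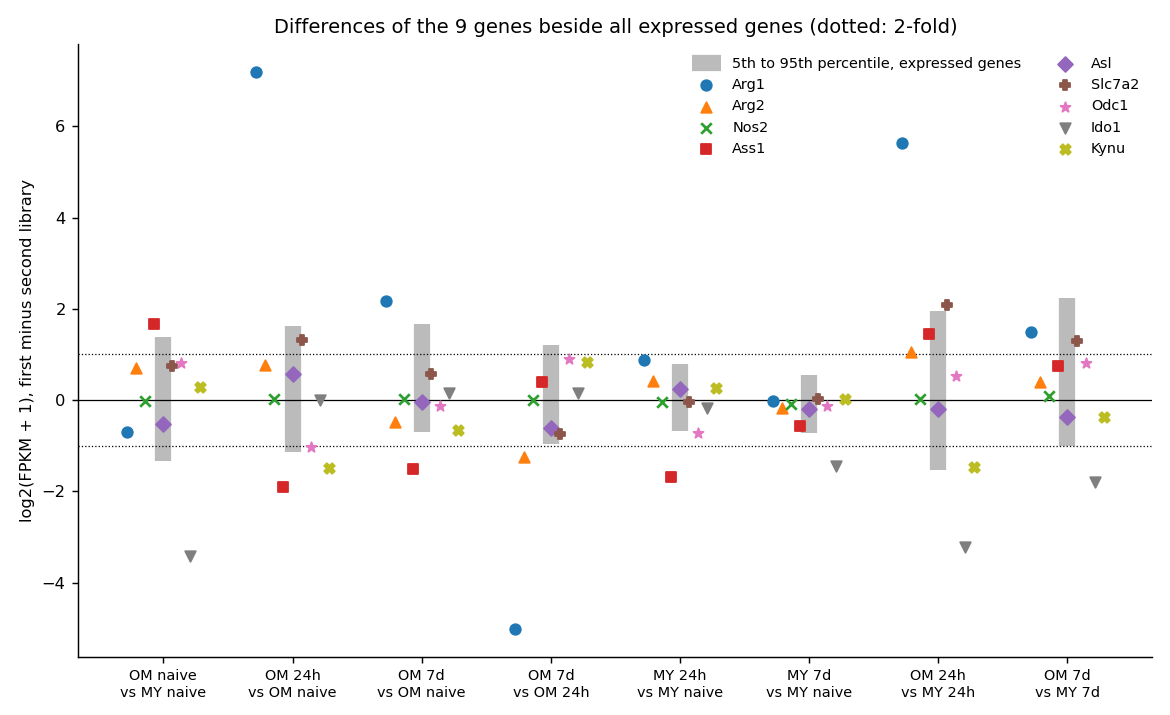
Difference in log2(FPKM + 1) between 2 libraries (vertical axis, first minus second) for the 9 genes (symbols, 1 value each, without error bars) in the 8 comparisons (horizontal axis). Grey bars span the 5th to the 95th percentile of the 13064 expressed genes and dotted lines mark 2-fold. Arg1 lay at 7.19 in OM 24h against OM naive and at -5.02 in OM 7d against OM 24h, and Ido1 lay below the grey bar in each comparison of the tissues.

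Ass1 and Asl, the pair that rebuilds arginine, did not follow each other. Ass1 spans 31325727 to 31376192 of chromosome 2 (plus strand) and has 16 exons. Its FPKM was 74.6 in OM naive, 19.3 in OM 24h and 25.6 in OM 7d, and 22.8 in MY naive, 6.41 in MY 24h and 14.98 in MY 7d. In each tissue the naive library was highest and the 24 h library lowest. The log2 difference between 24 h and naive was -1.90 in the omentum and -1.68 in the mesentery, where it was the 30th lowest of all expressed genes. Asl, on chromosome 5 (130487128 to 130501002, minus strand), was 28.7, 43.4 and 27.9 in OM naive, OM 24h and OM 7d, while its mesenteric levels were 41.9, 49.8 and 36.5 in MY naive, MY 24h and MY 7d. Its highest value in each tissue was thus at 24 h, and none of the 8 comparisons reached 2-fold. The FPKM ratio of Ass1 to Asl was 2.60 in OM naive, 0.445 in OM 24h and 0.916 in OM 7d, and 0.544, 0.129 and 0.410 in MY naive, MY 24h and MY 7d.

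B cell markers moved with Ass1 in part of these libraries. All 6 exceeded MY naive by 2-fold or more in OM naive. All 6 were also below OM naive by 2-fold or more in OM 24h, with a sum of 925.5 against 4123. In MY 24h against MY naive, 0 of the 6 was 2-fold apart (537.8 against 821.6), while Ass1 was 3.55 times lower. In MY 7d their sum was 1578, the highest of the mesentery, while Ass1 was below MY naive. The part of B cells in the level of Ass1 was not tested.

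Odc1, the first step of polyamine synthesis, had the highest FPKM of the 9 genes in 4 of the 6 libraries. It spans 17551679 to 17558308 of chromosome 12 (plus strand). Its FPKM was 78.4 in OM naive, 38.0 in OM 24h and 71.3 in OM 7d, and 44.0, 26.2 and 39.9 in MY naive, MY 24h and MY 7d. The 24 h library was lowest in each tissue and the 7 d library was close to the naive library. The log2 difference between 24 h and naive was -1.03 in the omentum and -0.73 in the mesentery. Summed B cell markers, given above, were likewise lowest at 24 h in each tissue, and their part in the level of Odc1 was not tested. In the libraries where Odc1 was not highest, Arg1 (OM 24h) and Asl (MY 24h) were.

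The other polyamine genes differed in direction at 24 h, and most were within 2-fold. Srm, the spermidine synthase, was 106.0 in OM naive and 59.0 in OM 24h, and 68.5 in MY naive and 38.2 in MY 24h, with log2 differences of -0.84 and -0.82. Sms, the spermine synthase, was 9.74 in OM naive and 4.52 in OM 24h. Neither passed 2-fold as log2(FPKM + 1). Sat1, which acetylates spermidine and spermine, was 177.7 in OM naive and 440.3 in OM 24h (log2 difference 1.30), and 356.8 in MY naive and 808.1 in MY 24h (1.18). Smox and Paox, both polyamine oxidases, gave 1.93 and 2.02 in the omentum and 0.32 and 0.74 in the mesentery. At 24 h in the omentum, 3 of the 13 expressed genes of the polyamine list passed 2-fold upwards and 2 downwards, where 11.9% and 6.45% of all expressed genes did (median log2 difference -0.0027). The antizymes Oaz1 and Oaz2, the antizyme inhibitor Azin1, and Dhps, Dohh and Eif5a, which concern the spermidine-derived residue hypusine, were all within 2-fold. The lower pair was Odc1 and Amd1, but Amd1 is uncertain. Its FPKM was 0.00938 in OM 7d and 0.0109 in MY 7d while Amd2, its near-identical copy, was 9.43 and 8.22, and their sum was 10.2 in OM naive, 6.28 in OM 24h and 9.44 in OM 7d, and 8.09, 9.15 and 8.23 in MY naive, MY 24h and MY 7d.

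The creatine genes, which also draw on arginine, had their highest level of each tissue at 24 h. Gatm, which transfers the amidino group of arginine to glycine, was 14.8 in OM naive, 128.9 in OM 24h and 37.0 in OM 7d, and 15.5, 34.98 and 25.02 in MY naive, MY 24h and MY 7d. Gamt, the next enzyme, was 8.52, 71.1 and 45.1 in the omentum and 5.44, 10.4 and 5.61 in the mesentery. In OM 24h against OM naive the ratios were 8.71 and 8.34, within the range of the macrophage markers (1.65 to 8.94), and their part was not tested. In MY 24h against MY naive Gatm passed 2-fold (log2 difference 1.12) and Gamt did not (0.82). Of the 6 expressed genes of ornithine and proline metabolism, 0 was 2-fold apart at 24 h in either tissue. Oat, which links ornithine to proline, was 101.6, 73.0 and 91.2 in OM naive, OM 24h and OM 7d.

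**Figure D3:**
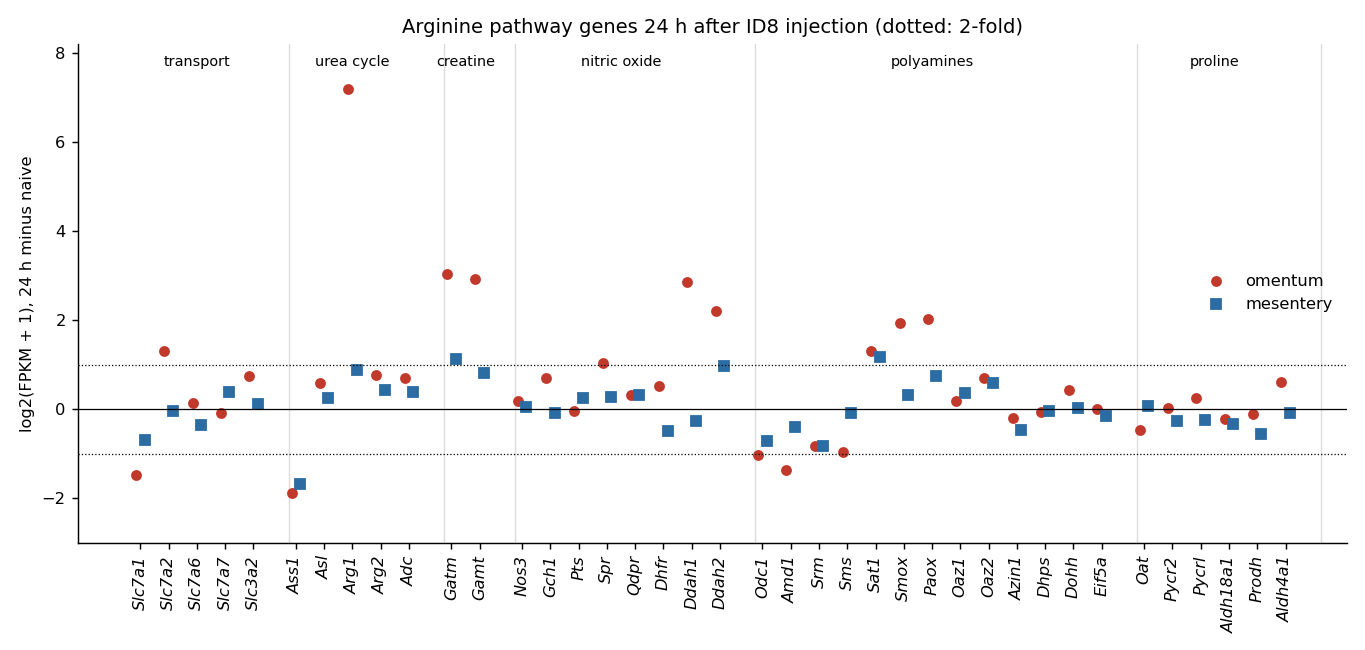
Difference in log2(FPKM + 1) between the 24 h and the naive library (vertical axis) for expressed genes of arginine transport and use (horizontal axis, grouped by route) in the omentum (circles) and the mesentery (squares), with 1 library per condition and no error bars. Dotted lines mark 2-fold. Arg1, Gatm and Gamt were highest in the omentum, and Ass1 was below -1 in both tissues.

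Of the 9 genes, 2 matched the RefSeq promoter table (GRCm38.p6), Ass1 and Odc1. They are shown because no other member is in that table. Their levels had a Pearson's r of 0.90 over the 6 libraries on the log2(FPKM + 1) scale, which share tissues and sorts and carry no test, and other member pairs had a larger r in size (Asl and Odc1, -0.95). The 250 bases before the annotated start are given 5′ to 3′ on the plus strand, from chr2:31470020-31470269 and chr12:17544623-17544872. Capitals mark an E-box (CACGTG, the site read by MYC with MAX and by related factors) or a GC box (GGGCGG or its complement CCGCCC, read by SP1).
Ass1: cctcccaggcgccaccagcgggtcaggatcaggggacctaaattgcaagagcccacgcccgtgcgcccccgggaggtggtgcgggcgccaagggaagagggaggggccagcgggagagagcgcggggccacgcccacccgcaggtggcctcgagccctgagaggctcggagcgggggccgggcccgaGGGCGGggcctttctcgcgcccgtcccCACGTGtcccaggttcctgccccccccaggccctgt
Odc1: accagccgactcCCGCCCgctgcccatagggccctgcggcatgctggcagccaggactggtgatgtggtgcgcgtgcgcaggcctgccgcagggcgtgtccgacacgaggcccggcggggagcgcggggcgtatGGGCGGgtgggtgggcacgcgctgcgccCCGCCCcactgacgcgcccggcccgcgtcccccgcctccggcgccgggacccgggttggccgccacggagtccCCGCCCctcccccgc
On either strand, the Ass1 window holds 1 E-box, from 36 to 31 bases before the start, and 1 GC box. The Odc1 window holds 4 GC boxes and no E-box, and neither holds CCAAT (either strand) or TATAAA. The marked motifs do not overlap. Among 32851 promoters of the table, 6.02% hold the E-box, 32.7% the GC box, 33.8% CCAAT and 12.4% TATAAA in the same window. These are matches of letters and not sites known to be bound in these cells. Bases after the start were not searched, so the absence of a motif holds for this window only.

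Ido1, the interferon-induced enzyme that opens the kynurenine route, was read in the mesentery. It spans 25694608 to 25707481 of chromosome 8 (minus strand). Its FPKM was 9.64 in MY naive, 8.39 in MY 24h and 2.89 in MY 7d. In the omentum it was listed at 0 in OM naive and OM 24h and stood at 0.117 in OM 7d, so that the tissues did not overlap. A listed 0 can be a failed estimate, as Cd74 shows, which was at 0 in OM 24h and above 100 in every other library. Ido1 was also low in OM 7d. Ido2, a related enzyme, was listed at 0 in OM naive and OM 7d, stood at 0.00950 in OM 24h, and was 1.13, 1.57 and 0.516 in MY naive, MY 24h and MY 7d. For Ido1, MY 7d was below MY naive by 1.45 (log2), the only difference of a member past 2-fold between these libraries.

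Kynu, further down the route, differed in pattern from Ido1. It spans 43410849 to 43538235 of chromosome 2 (plus strand). Its FPKM was 19.5 in OM naive, 6.32 in OM 24h and 12.0 in OM 7d, and 15.7, 19.1 and 16.0 in MY naive, MY 24h and MY 7d. OM 24h was the lowest library (log2 difference -1.48 against OM naive) and MY 24h the second highest, just below OM naive. Kmo and Haao, enzymes of the same branch, were lowest in OM 24h among the omental libraries. Kmo was 30.2 in OM naive, 13.5 in OM 24h and 22.5 in OM 7d, and Haao was 42.1, 18.2 and 42.7. In MY 24h against MY naive, Kmo was 10.8 against 14.99 and Haao 36.3 against 33.96. At 24 h in the omentum, 0 of the 10 expressed genes of the kynurenine list passed 2-fold upwards and 4 downwards (Kmo, Kynu, Haao and Qprt), where 11.9% and 6.45% of all expressed genes did, with a median log2 difference of -0.45 against 0 for all expressed genes. In OM naive, OM 24h and OM 7d, NK cell markers summed to 226.0, 13.7 and 106.0. Dendritic cell markers other than type 1 summed to 440.2, 193.8 and 264.2. Both sums, and that of the B cell markers, were thus also lowest in OM 24h. Markers of type 1 conventional dendritic cells summed to 90.3, 112.7 and 61.4. Batf3 alone held 67.2, 86.1 and 34.2 of these sums. The genes of that list differed in direction between OM naive and OM 24h. Xcr1 (7.01 and 6.09), Clec9a (3.99 and 1.82) and Tlr3 (4.76 and 3.16) were lower in OM 24h. Batf3, Itgae (1.74 and 6.96) and Cadm1 (5.59 and 8.56) were higher. The part of these cells in the levels of the kynurenine genes was not tested.

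**Figure D4:**
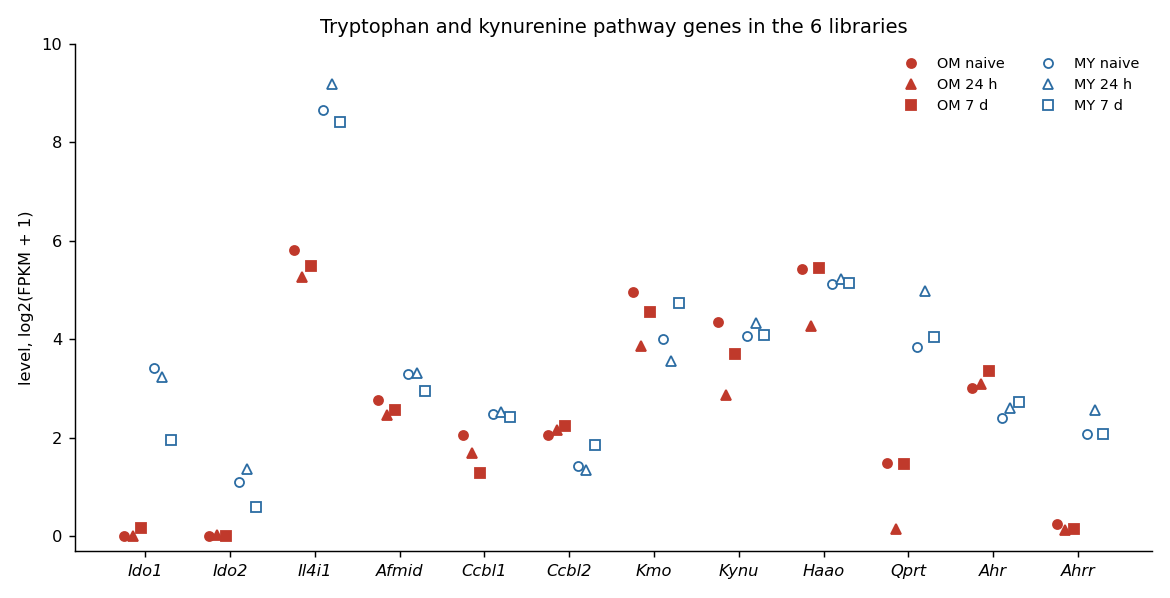
Level, as log2(FPKM + 1) (vertical axis), of 12 genes of tryptophan and kynurenine metabolism and its sensor (horizontal axis) in the omental libraries (filled) and the mesenteric libraries (open), with circles for naive, triangles for 24 h and squares for 7 d. Each symbol is 1 library. Ido1, Ido2, Il4i1, Qprt and Ahrr were lower in every omental than in every mesenteric library, and Kynu overlapped between the tissues.

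Across the tissues, 1 of the 8 expressed members was higher in all 3 omental than in all 3 mesenteric libraries (Slc7a2, background 16.7%), and 1 was lower in all 3 (Ido1, 17.7%). In the kynurenine list, 6 of 10 expressed genes were lower in all 3 omental libraries: Ido1, Ido2, Afmid, Qprt, Ccbl1 and Il4i1. Ccbl2 was higher in all 3. Il4i1, a secreted enzyme that also uses tryptophan, was 55.1, 37.7 and 43.8 in OM naive, OM 24h and OM 7d and 406.0, 585.2 and 338.8 in MY naive, MY 24h and MY 7d. Qprt, which makes a precursor of NAD from quinolinate, was 0.101 to 1.81 in the omentum and 13.4 to 30.4 in the mesentery. Ahrr is a target and repressor of the aryl hydrocarbon receptor, which kynurenine can activate. Its FPKM was at most 0.188 in the omentum and at least 3.19 in the mesentery. Ahr itself went the other way (7.01 to 9.23 in the omentum against 4.25 to 5.61). So did Cyp1b1 and Tiparp, listed with them as genes of tryptophan sensing. Both were higher in all 3 omental than in all 3 mesenteric libraries. In OM naive, OM 24h and OM 7d, Cyp1b1 was 1.69, 19.1 and 21.9 and Tiparp was 18.7, 23.4 and 26.7. In MY 24h and MY 7d, Cyp1b1 was 0.334 and 0.534 and Tiparp was 5.82 and 9.87. The difference of Cyp1b1 between the tissues thus rested on a low omental level in naive mice and a higher one after injection.

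Markers of dendritic cells, a cell type known to express Ido1, moved with part of this pattern. On the list of dendritic cell markers other than type 1, Flt3, Ccr7, Fscn1 and Siglech were lower in all 3 omental libraries. Cd209a was higher and Zbtb46 overlapped. The list summed to 193.8 to 440.2 in the omentum and 1053 to 1385 in the mesentery. The list of type 1 conventional dendritic cells summed to 61.4 to 112.7 and 89.4 to 127.0, with 2 of 6 genes (Clec9a and Itgae) lower in all 3 omental libraries. Neither list had a gene at 0 in any library. T cell and NK cell markers were lower in all 3 omental libraries in 5 of 5 and 6 of 6 measured genes. The part of these cells in the level of Ido1 was not tested.

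Genes of pathways known to act on Arg1, Nos2 and Ido1, together with targets and markers of those pathways, were listed as well. Of 11 expressed genes of the interleukin-4 pathway and alternative activation, 5 passed 2-fold upwards and 1 downwards at 24 h in the omentum (median log2 difference 0.62), where 11.9% and 6.45% of all expressed genes did. In the mesentery 5 and 0 did (0.77), against 2.80% and 1.52%. Retnla, a secreted alternative activation marker, was 3681 in OM naive, 2402 in OM 24h and 311.0 in OM 7d, and 23.6, 221.3 and 5.97 in MY naive, MY 24h and MY 7d. In the omentum its highest level was thus in the naive library, unlike Arg1, and in the mesentery at 24 h, like Arg1. Mrc1, a mannose receptor, had its highest value in each tissue at 24 h (50.5 in OM 24h, 18.5 in MY 24h). Cebpb, a transcription factor known to act on the Arg1 gene, was 470.9, 1305 and 734.6 in OM naive, OM 24h and OM 7d, and its mesenteric levels were 209.2, 611.1 and 228.1 in MY naive, MY 24h and MY 7d. Its log2 difference between 24 h and naive was 1.47 in the omentum and 1.54 in the mesentery, while that of Arg1 was 7.19 and 0.87.

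Of the 12 expressed genes of the interferon-gamma list, 3 passed 2-fold upwards at 24 h in the omentum (Ifngr2, Cxcl9 and Cxcl10) and 0 downwards, against 11.9% and 6.45% of all expressed genes. None was 2-fold apart in MY 24h against MY naive, where 2.80% were higher and 1.52% lower. Of the 12, 3 were lower in all 3 omental than in all 3 mesenteric libraries (Irf1, Jak2 and Irf8), and 1 was higher (Cxcl9). Of all expressed genes, 17.7% were lower and 16.7% were higher in this way. Irf1, an interferon-induced factor, was 87.2 to 176.4 in the omentum and 226.6 to 337.1 in the mesentery.

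For each member with an FPKM of at least 10 in some library, the 3 genes with the most similar pattern were taken from those that reached an FPKM of 10 and varied at least 2-fold, by Pearson's r of log2(FPKM + 1) over the 6 libraries. The libraries share tissues, sorts and times, and with 6 points many genes reach a high r. For Arg1 they were Gpr160 (0.992), Ifngr2 (0.991) and Ap1s1 (0.989). Without OM 24h, which holds most of the range of Arg1, these became 0.934, 0.889 and 0.886 over 5 libraries. For Odc1 they were Pus7 (0.981), Tuba4a (0.968) and Myc (0.965). Myc, whose product is known to activate Odc1, had an FPKM of 262.5, 64.1 and 146.7 in OM naive, OM 24h and OM 7d, and its mesenteric levels were 61.4, 37.4 and 66.0 in MY naive, MY 24h and MY 7d. For Ass1 they were Ddx19a (0.993), Diap1 (0.982) and Mettl1 (0.982), for Asl Fam213b (0.995), Gngt2 (0.995) and Marcks (0.994), and for Kynu Rnase6 (0.990), BC035044 (0.987) and Zcchc7 (0.976).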

How the data were processed

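Per the study's methods and the submitters' processing notes, the authors used FastQC 0.11.4 for read quality and STAR 2.4.2a for alignment of paired reads of 75 bases to mm9, guided by UCSC gene models. Cufflinks then gave the FPKM. The deposited table holds FPKM per gene symbol for 6 libraries, with no scaling between libraries visible. FPKM are not counts, so the DESeq2 comparison of the study was not repeated. Differences were taken between pairs of libraries as log2(FPKM + 1), so changes of low genes are understated, and counted at 2-fold among the 13064 genes that reached 1 FPKM in any library. An FPKM of 0 is given as listed at 0, without a fold. The scripts used Python 3.11.15, numpy 2.4.6, pandas 2.3.3 and matplotlib 3.10.9, and were tested on simulated data. The members, pathway lists, cell type lists and motifs were chosen with earlier results of these data known. Named genes are the members, list genes at least 2-fold apart with an FPKM of at least 10 in 1 of the 2 libraries or listed at 0, and the 3 most alike genes of each member. Other list genes, Amd2 and Cd74 were named after their values were seen. Positions come from GENCODE M1 on NCBIM37. The members' longest coding transcripts share no 75-base window with coding transcripts of other genes. Promoters come from a RefSeq table of another build, GRCm38.p6. Alternatives were pseudocounts of 0.1 and 5, rescaling by median ratios or to a common sum, a filter of 1 FPKM in all 6 libraries, and leaving out 1 time.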

Additional observations from a re-analysis of the deposited data

Results flagged for a closer look

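The members below were at least 2-fold apart between times in 1 tissue and had the opposite sign in the other. Each tissue and time has 1 library, so the difference between the tissues was not tested. Slc7a2 differed between 24 h and naive by 1.31 (log2) in OM and by -0.039 in MY, where its FPKM was at most 0.0499. Kynu differed between 24 h and naive by -1.48 in OM and by 0.27 in MY. Arg1 differed between 7 d and naive by 2.18 in OM and by -0.012 in MY, where the naive and 7 d levels were 1.37 and 1.35. Ido1 differed between 7 d and naive by 0.16 in OM, where it was listed at 0 in naive mice and stood at 0.117 at 7 d, and by -1.45 in MY. Between 7 d and 24 h Ido1 differed by 0.16 in OM and by -1.27 in MY.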

How the results depend on the processing

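No paired analysis was possible because no group holds a second library. Of 288 log2 differences of members recomputed with a pseudocount of 0.1 or 5 or after rescaling the libraries, 261 stayed within 0.58 (1.5-fold), 27 moved further, and none that had passed 2-fold changed sign. The 27 were of Arg1, Arg2, Slc7a2 and Ido1. With a pseudocount of 5, Arg1 in OM 24h against OM naive was 5.32, and in OM 7d against OM naive 0.96.

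Of 55 recounts of members past 2-fold, or apart between the tissues, 35 stayed within 1.5 times. Only 4 members reached 1 FPKM in all 6 libraries. With that filter 1 was 2-fold apart in OM naive against MY naive (of 2), 3 in OM 24h against OM naive (of 5), 1 in OM 7d against OM naive (of 2), 2 in OM 24h against MY 24h (of 6), and 0 in OM 7d against OM 24h, MY 7d against MY naive, OM 7d against MY 7d and the separation of the tissues. A pseudocount of 5 left 3, 1 and 1 in OM 24h against OM naive, OM 7d against OM naive and OM 7d against OM 24h, and 0 in MY 7d against MY naive and OM 7d against MY 7d. A pseudocount of 0.1 gave 5 in OM naive against MY naive, 4 in OM 7d against OM 24h and 2 in MY 24h against MY naive. Rescaling each library to a sum of 1000000 gave 4 and 4 in OM naive against MY naive and OM 7d against OM 24h, where it moved the median of all expressed genes by -0.19 and 0.36. It moved that median by -0.17 in OM 24h against OM naive and by -0.27 in OM 24h against MY 24h. Without the naive libraries 5 members were apart between the tissues, and without the 24 h libraries 6. Such separation is easier to reach with 2 libraries a tissue than with 3. The share of all expressed genes apart in that setting was not counted, so the shares given above do not apply to it. These recounts differ from the main ones in the members or libraries counted, in the handling of low values or in the scale of the libraries. The cause of the shifts was not tested. The correlations without a library were chosen after seeing the data. Levels under an FPKM of 1 (Nos2, Arg1 in OM naive, Slc7a2 in OM naive and the mesentery, Arg2 in MY 7d, omental Ido1) are the least certain, and the reads behind them are not known.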
